A study of Mus musculus with 4 samples.

Results

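The mitochondrial ribosomal proteins are the protein part of the ribosome that works inside mitochondria. On the arrays of this study they were the 76 genes whose name in the scanner files begins with Mrpl or Mrps and a number, out of 34844 gene names. By name, 47 belong to the large and 29 to the small subunit. They were read by 106 probes, of which 105 gave a signal well above background on all 4 arrays, so that all 76 genes were measured on every array. The exception was 1 of 2 probes of Mrpl21, with a signal of 3.85 to 4.26.

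The mitochondrial ribosome translates the few messenger RNAs that mitochondrial DNA encodes, all of them for membrane subunits of the oxidative phosphorylation (OXPHOS) complexes. Its own proteins are encoded in the nucleus, made in the cytosol and imported. Brown adipose tissue is rich in mitochondria and burns fuel to make heat through the uncoupling protein Ucp1, whereas white adipose tissue stores fat and holds far fewer mitochondria.

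Gene expression was measured in interscapular brown adipose tissue (iBAT) and epididymal white adipose tissue (eWAT) of wild-type (WT) mice and of mice that lack the stress-activated kinase ASK1 in the whole body, labelled ASK1KO. The mice were male, aged 10 weeks and, per the labels, under a normal condition, and the WT and ASK1-deficient mice came from separate breeding. Each of the 4 arrays was hybridized with a pool of RNA from 3 mice, so there was 1 array for each genotype and tissue, and the spread between mice is not known. Levels are given as the log2 of the scanner's processed signal minus the 75th percentile of the array. Differences between 2 arrays on this scale are log2 ratios, and levels of different genes are not compared, since probes differ in how they bind.

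The 2 iBAT arrays lay in one row of the slide and the 2 eWAT arrays in the other, so tissue and row cannot be told apart. The 75th percentile of the signal was 356 and 371 in iBAT and 673 and 634 in eWAT. Map3k5, which encodes ASK1, has 2 probes: at one the log2 ratio of ASK1-deficient to WT was -2.00 in iBAT and -1.76 in eWAT, and at the other it was -0.06 and -0.51. Where these probes lie relative to the disrupted part of the gene is not given in the sources used here. Ucp1, the defining gene of brown adipocytes, gave a signal of 343275 in iBAT and 6603 in eWAT of WT mice, and of 263161 and 252 in those of ASK1-deficient mice. For Lep, made by white adipocytes, the log2 difference of iBAT minus eWAT was -4.56 in WT mice and -4.42 without ASK1.

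The start regions of 6 of the genes are shown because they mark the ends of the tissue comparison below or hold motifs of factors known to bind such promoters. Mrpl34 and Mrps36 had the largest differences between iBAT and eWAT and Mrps6 the lowest, while Mrpl39, Mrps27 and Mrps22 hold motifs of NRF1, YY1 or ETS factors. They were chosen after their values had been seen. The sequences are from RefSeq on build GRCm38.p6, from 250 bases before to 30 bases after the transcription start, 5′ to 3′ on the strand of the gene, and capitals mark motif matches.

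Mrpl34, chr8:71464676-71464955, plus strand, 3 ZNF143 matches: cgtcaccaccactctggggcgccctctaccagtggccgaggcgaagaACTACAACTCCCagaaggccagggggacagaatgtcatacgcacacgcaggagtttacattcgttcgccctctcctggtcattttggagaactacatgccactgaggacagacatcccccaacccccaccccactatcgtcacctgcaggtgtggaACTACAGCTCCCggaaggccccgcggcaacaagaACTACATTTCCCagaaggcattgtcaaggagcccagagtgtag
Mrps36, chr13:100744630-100744909, minus strand, 1 SP1 match: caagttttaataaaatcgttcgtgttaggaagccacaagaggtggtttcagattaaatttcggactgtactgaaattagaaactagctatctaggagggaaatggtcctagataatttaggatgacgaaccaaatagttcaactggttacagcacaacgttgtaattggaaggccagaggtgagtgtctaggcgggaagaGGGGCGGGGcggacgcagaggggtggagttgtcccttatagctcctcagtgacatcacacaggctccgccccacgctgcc
Mrps6, chr16:92058086-92058365, plus strand, 1 SP1 match: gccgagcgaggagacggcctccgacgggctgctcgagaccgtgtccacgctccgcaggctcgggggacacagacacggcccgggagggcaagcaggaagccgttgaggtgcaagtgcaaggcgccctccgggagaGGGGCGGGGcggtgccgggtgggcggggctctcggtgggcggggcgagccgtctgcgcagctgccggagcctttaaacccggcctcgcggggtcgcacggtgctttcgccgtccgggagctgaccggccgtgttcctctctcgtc
Mrpl39, chr16:84735215-84735494, minus strand, 1 NRF1 match: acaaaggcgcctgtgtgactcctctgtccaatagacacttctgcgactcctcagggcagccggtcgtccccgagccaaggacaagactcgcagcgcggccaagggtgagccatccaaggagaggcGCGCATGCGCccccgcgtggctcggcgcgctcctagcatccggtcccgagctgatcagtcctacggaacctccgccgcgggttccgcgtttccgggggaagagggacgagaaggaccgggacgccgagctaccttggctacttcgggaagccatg
Mrps27, chr13:99344536-99344815, plus strand, an ETS match on the opposite strand and then a YY1 match: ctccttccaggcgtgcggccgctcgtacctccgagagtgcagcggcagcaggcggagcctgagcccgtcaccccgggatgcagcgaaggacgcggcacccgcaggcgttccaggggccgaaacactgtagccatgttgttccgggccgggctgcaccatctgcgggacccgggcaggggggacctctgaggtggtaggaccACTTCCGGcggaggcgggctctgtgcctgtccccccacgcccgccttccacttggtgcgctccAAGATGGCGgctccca
Mrps22, chr9:98601650-98601929, minus strand, SP1, ZNF143 and ETS matches in this order: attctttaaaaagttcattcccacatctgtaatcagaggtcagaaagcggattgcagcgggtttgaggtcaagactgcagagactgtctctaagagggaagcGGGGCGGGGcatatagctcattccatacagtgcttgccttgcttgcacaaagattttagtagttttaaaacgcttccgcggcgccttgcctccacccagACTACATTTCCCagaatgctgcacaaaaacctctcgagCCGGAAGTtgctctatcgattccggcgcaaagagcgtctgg

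The first question was how the genes differ between the brown and the white depot. They were higher in iBAT almost throughout. In a limma fit of tissue and genotype over the 4 arrays, 72 of the 76 genes were higher in iBAT and 0 lower at an adjusted p under 0.05, where 30.8% of all 14057 measured genes were called higher and 24.6% lower. No gene of the group was lower at an unadjusted p under 0.05 either, but under 5 of the alternatives for background and scaling Mrps6 was called lower, at a limma adjusted p of 0.00158 to 0.0422. Without scaling 28 of the 76 were called higher, beside 9.13% of all genes, and 2 lower, and the median was 0.20, against -0.77 for all genes. The median log2 difference of the group was 1.05, which is 2.07-fold, against 0.07 for all genes, and 87.3% of all genes had a smaller difference than this median. In 74 of the 76 genes both iBAT arrays stood above both eWAT arrays, as they did in 44.5% of all genes. The fit has 1 residual degree of freedom and takes its spread from how the tissue difference varies between the genotypes and from the spread over all genes. In bulk tissue, fewer cells of a type and less RNA per cell cannot be told apart.

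**Figure D1:**
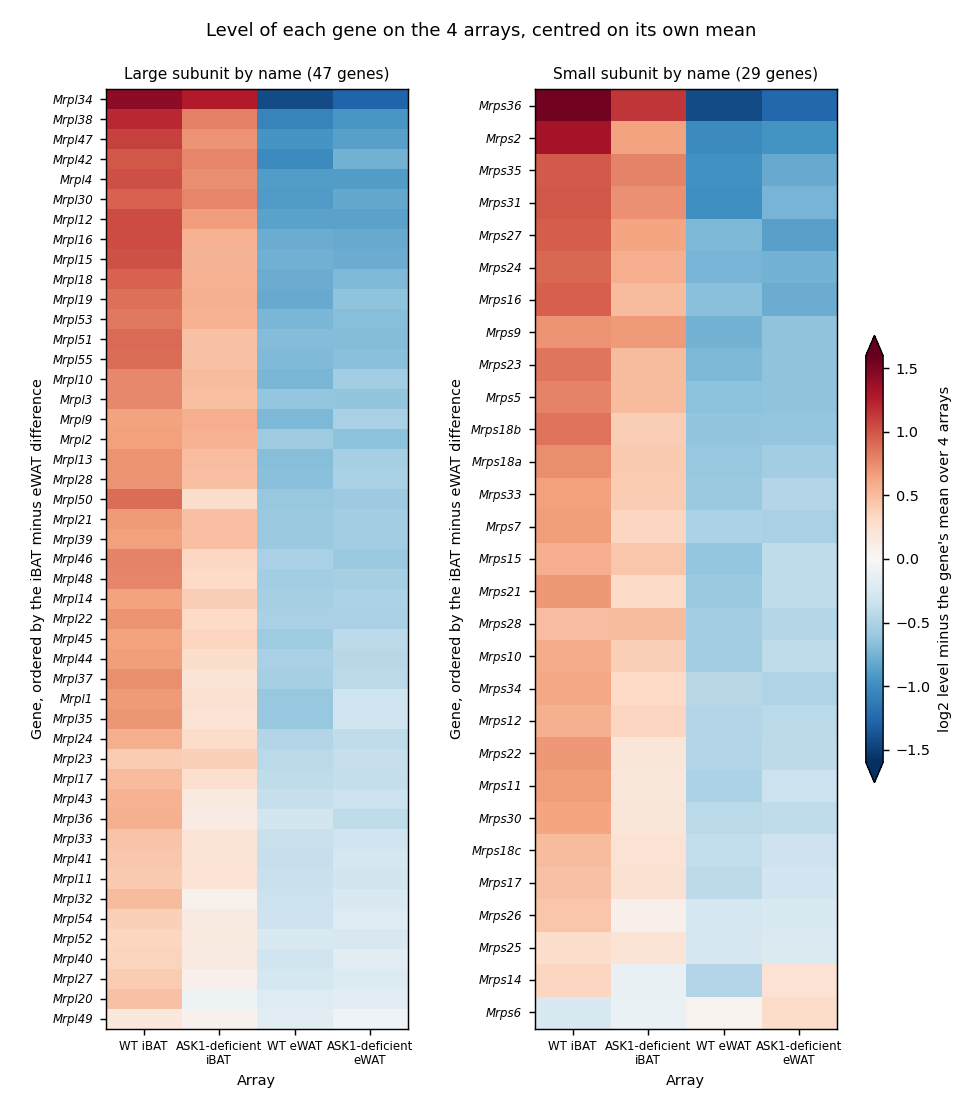
Scaled log2 level of each mitochondrial ribosomal protein gene (rows) on the 4 arrays (columns), centred on the gene's own mean over the arrays, with red above and blue below that mean. In 74 of the 76 genes the WT iBAT array has the highest level, the exceptions being Mrps6, at the bottom of the small-subunit panel, and Mrps28.

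The largest difference was that of Mrpl34, the counterpart of a small protein of the bacterial large subunit, read by a probe at chr8:73989526-73989585 of build mm9. On the WT arrays its log2 level was 5.82 in iBAT and 2.96 in eWAT, and on the ASK1-deficient arrays 5.66 and 3.11. Both iBAT arrays lay far above both eWAT arrays, and the fitted log2 difference was 2.70 ± 0.16 (SE, limma over 4 arrays, adjusted p = 5.68e-05). This probe is spotted 10 times on each array, and the log2 ratio of iBAT to eWAT had an SD between spots of 0.05 for WT and 0.04 for ASK1-deficient mice.

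Mrps36 came next, with a fitted log2 difference of 2.68 ± 0.18 (SE, limma over 4 arrays, adjusted p = 9.97e-05). Its protein carries a ribosomal name but is known as a subunit that holds the 2-oxoglutarate dehydrogenase complex of the citric acid cycle together. Its log2 level was 6.27 in iBAT and 3.30 in eWAT of WT mice, and 5.87 and 3.47 in those of ASK1-deficient mice. Its 2 probes gave 3.25 and 2.69 for the WT arrays.

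Mrpl38 (log2 difference 2.01), Mrps2 (1.97) and Mrpl47 (1.81) completed the 5 highest. Mrps2 and Mrpl47 have bacterial counterparts, while Mrpl38 belongs to the proteins that mitochondrial ribosomes gained. At the other end, 4 genes did not pass the test. Mrps6, whose bacterial counterpart sits in the platform of the small subunit, was the one gene of the group with a fitted value below 0, a log2 difference of -0.35 ± 0.15 (SE, limma over 4 arrays, adjusted p = 0.0830). Its log2 level was 4.66 in iBAT and 4.96 in eWAT of WT mice, and 4.80 and 5.2 in those of ASK1-deficient mice. The lowest of the 4 values was thus the WT iBAT array, which was the highest for most of the group. Mrpl49 had a log2 difference of 0.24 (adjusted p = 0.217 in the limma fit), Mrps14 of 0.23 (adjusted p = 0.496) and Mrpl20 of 0.39 (adjusted p = 0.117).

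Genes for the functional parts of the ribosome had tissue differences of several sizes. In the stalk, which recruits the factors of translation, Mrpl12 had a log2 difference of 1.72, Mrpl10, which anchors it, 1.28, and Mrpl11 at the stalk base 0.64. Mrps12 of the decoding centre had 0.90. Mrpl44, which has a ribonuclease fold, had 0.96, and Mrpl45, which lies at the exit of the nascent chain near the inner membrane, had 0.99. All 6 were called higher in iBAT. Of the 3 genes descended from one bacterial S18 gene, Mrps18b had 1.25, Mrps18a 1.16 and Mrps18c 0.74, each called. The proteins of Mrps18a and Mrps30 (0.83, also called) sit in the large subunit in spite of their names. Over all genes 30.8% were called higher in iBAT.

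By subunit and by descent the medians lay close together. The median log2 tissue difference was 1.12 for the large and 1.02 for the small subunit, with 45 of 47 and 27 of 29 genes called higher, beside 30.8% of all genes. It was 1.10 for the 48 genes with a bacterial counterpart, of which 45 were called, and 0.99 for the 27 specific to mitochondria, of which 26 were called.

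Taken within each genotype, the iBAT to eWAT difference was larger on the WT arrays. In WT the median log2 difference of the group was 1.28, and 56 genes were at least 2-fold higher in iBAT, beside 16% of all genes. In ASK1-deficient mice the median was 0.87 and 32 genes were at least 2-fold higher, beside 12.6%. Above 0 were 75 genes in WT mice, beside 56.1% of all genes, and 74 in ASK1-deficient mice, beside 51.7%. Without scaling the genes at least 2-fold higher were 8 in WT and 2 in ASK1-deficient mice, beside 4.84% and 4.38% of all genes, and those above 0 were 57 and 45, beside 17.8% and 17.6% of all genes. The order of the genes was much the same, with a Pearson correlation across the 76 genes of 0.94, beside 0.93 across all 14057 genes. Genes are not independent replicates, and the smaller difference in ASK1-deficient mice is the same information as the 2 genotype ratios below.

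**Figure D2:**
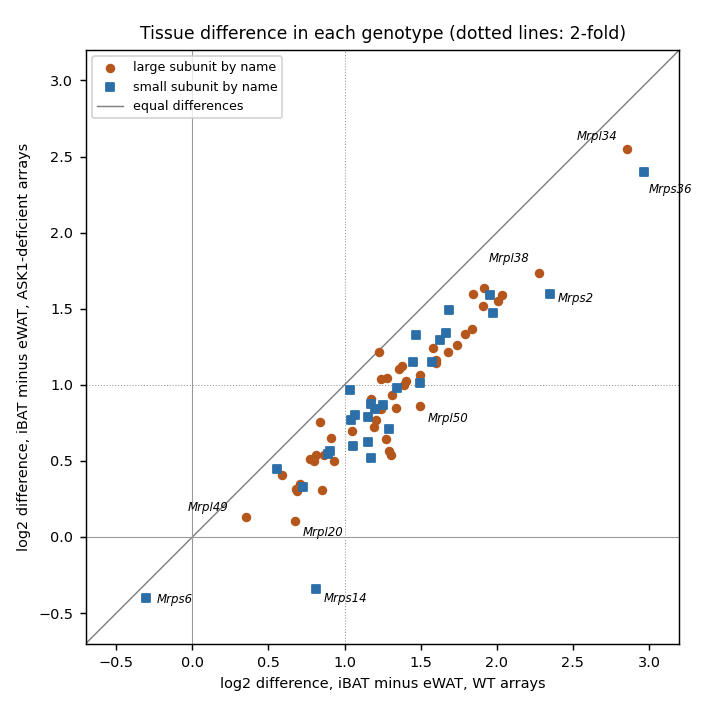
Log2 difference of iBAT minus eWAT for each gene on the WT arrays (horizontal) and on the ASK1-deficient arrays (vertical), with the line of equal differences. All 76 points lie below the line, with medians of 1.28 and 0.87, and Mrpl34 and Mrps36 are farthest from the origin.

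The second question was whether the loss of ASK1 goes with a change of these genes in iBAT. The group was lower in ASK1-deficient iBAT by a small amount that ran through nearly all its genes. The log2 ratio of ASK1-deficient to WT was below 0 for 74 of 76 genes, where 59.5% of all genes were below 0, and above 0 for 2, where 40.5% were above. The median of the group was -0.30, which is 0.811 of the WT level, against -0.07 for all genes, and 18.5% of all genes had a lower ratio than this median. None of the 76 reached a 2-fold difference, a size that 1.76% of all genes had. With 1 array per genotype there is no test of the iBAT difference, and the repeated spots give the only error. The SD of the iBAT log2 ratio between spots of one probe had a median of 0.09 over 276 probes. This SD covers the array and not the mice. Below 0 by more than this SD were 70 of the 76 genes, but the share of all genes was not counted. The 25th percentile of all genes was -0.24, and 49 of the 76 genes lay below it. The median was -0.18 after quantile normalization, where that of all genes was -0.02.

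The lowest ratio was that of Mrps2, -0.70, which is 0.617 of the WT level. In iBAT its log2 level was 1.99 for WT and 1.30 for ASK1-deficient mice, and in eWAT it was -0.36 and -0.30. Its 2 probes, at chr2:28325206-28325265 and chr2:28326283-28326342 of mm9, gave iBAT log2 ratios of -0.80 and -0.59. Both probes moved the same way, and in eWAT they gave 0.12 and -0.0044.

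Mrpl50, a large-subunit protein specific to mitochondria, followed at -0.61. In iBAT its log2 level was 2.85 for WT and 2.24 for ASK1-deficient mice, and in eWAT it was 1.35 and 1.38. One of its probes is spotted 10 times, and over 9 usable spots in both iBAT arrays its log2 ratio was -0.73 ± 0.12 (SD, n = 9 spots of 1 probe). The 2 other genes with a probe of 10 spots were Mrps35, at -0.19 ± 0.06 (SD, n = 10 spots of 1 probe), and Mrpl34, at -0.16 ± 0.05 (SD, n = 10 spots of 1 probe). For these 3 probes the iBAT ratio was thus larger than the spread between spots.

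Mrpl20 had an iBAT log2 ratio of -0.55, Mrpl37 of -0.53 and Mrps22 of -0.49. Mrpl20 has a bacterial counterpart, and the other 2 are specific to mitochondria. At the top stood Mrps6 at 0.14 and Mrps28 at 0.01, the 2 genes of the group above 0, then Mrpl23 at -0.02, Mrps9 at -0.03 and Mrpl9 at -0.06. The 2 probes of Mrpl9 disagreed, with -0.31 at a WT iBAT signal of 5806 and 0.19 at one of 28.1. The lowest signal well above background on that array was 19.7.

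The shift was spread over the parts of the ribosome. The median iBAT log2 ratio was -0.29 in the large and -0.32 in the small subunit, and -0.29 and -0.30 for genes with a bacterial counterpart and genes specific to mitochondria. In the stalk Mrpl12 had -0.38, Mrpl10 -0.26 and Mrpl11 -0.19. Mrps12 had -0.23, Mrpl44 -0.39, Mrpl45 -0.30, Mrps30 -0.43, Mrps36 -0.40, Mrps18a -0.32, Mrps18b -0.47 and Mrps18c -0.27. Between its quartiles the group ran from -0.43 to -0.22, and in full from -0.70 to 0.14.

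In eWAT the ratios were closer to 0 and mostly on the other side. The eWAT log2 ratio of ASK1-deficient to WT was above 0 for 63 of 76 genes, where 55% of all genes were above 0, but for 30 of 76 when the arrays were not scaled, where 30.6% of all genes were. The median was 0.06, against 0.02 for all genes, and 62.9% of all genes had a lower ratio than this median. None reached a 2-fold difference, as 0.811% of all genes did. The SD over repeated spots had a median of 0.06 in eWAT over 292 probes, which 39 genes exceeded above 0 and 5 below 0. The share of all genes beyond this SD was not counted. Between their quartiles all genes ran from -0.09 to 0.11 and the group from 0.02 to 0.14.

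The highest eWAT ratios were those of Mrps14 (0.69), Mrpl1 (0.29), Mrpl35 (0.29), Mrpl42 (0.26) and Mrps6 (0.24). The lowest were those of Mrps27 (-0.14), Mrps16 (-0.12), Mrpl36 (-0.11), Mrpl2 (-0.09) and Mrpl46 (-0.08). For Mrpl1 the eWAT log2 level was 0.16 for WT and 0.45 for ASK1-deficient mice, both below the iBAT levels of 1.45 and 1.02. For Mrps27, which binds RNA in the small subunit, it was 0.025 and -0.12, below iBAT levels of 1.71 and 1.38. In the stalk the eWAT log2 ratio was 0.01 for Mrpl12, 0.17 for Mrpl10 and 0.06 for Mrpl11.

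**Figure D3:**
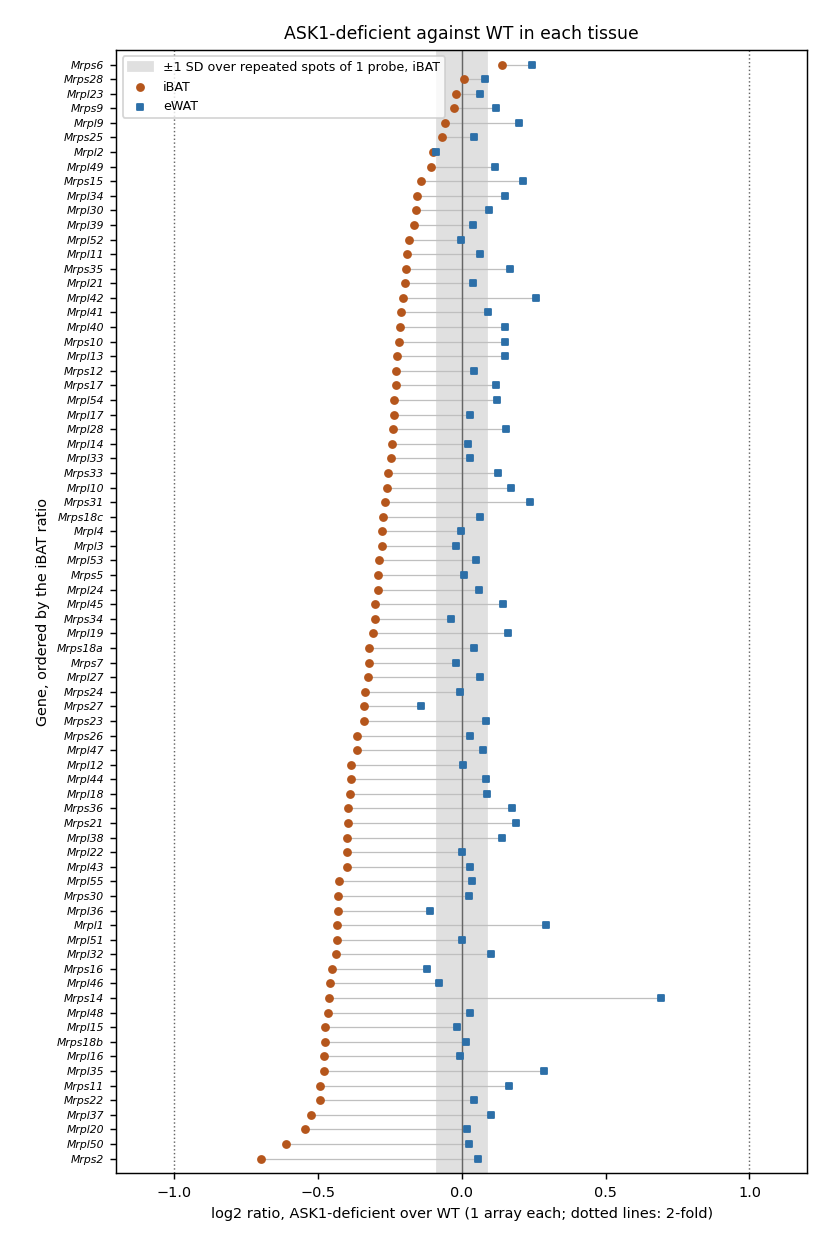
Log2 ratio of ASK1-deficient to WT for each of the 76 genes in iBAT (circles) and eWAT (squares), ordered by the iBAT ratio, with 1 array per genotype and tissue. The grey band is 1 SD over repeated spots of a probe in iBAT (0.09) and the dotted lines mark a 2-fold difference, which no gene reached.

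Set side by side, 61 of the 76 genes were below 0 in iBAT and above 0 in eWAT, beside 32.5% of all genes, 13 were below 0 in both tissues and 2 above 0 in both. The 61 became 27 without scaling, where the eWAT median turned below 0, and 42 to 69 under the other alternatives. The correlation across the 76 genes between the 2 ratios was 0.12. The order WT iBAT, then ASK1-deficient iBAT, then both eWAT arrays held for 73 of the 76 genes and for 31.1% of all genes. When tissue and genotype were fitted together, 0 of the 76 genes were called for genotype by limma and 0 had an unadjusted p under 0.05. Over all genes 0 were called (0.0%), and 770 had an unadjusted p under 0.05.

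The value of Mrps14, a protein of the small-subunit head in bacteria, rested on which of its 3 probes was read. The first 30 of the 60 bases of each are shown because the probes disagree, in the order of their position on chr1 of mm9, plus strand.

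Mrps14 probe at chr1:162125616-162125675: ttcaggtgtgatccgtcatgtgaaagctgc
Mrps14 probe at chr1:162129889-162129948: attgaattgtctttcaactttaaagcatag
Mrps14 probe at chr1:162130380-162130439: gtgctgatggttgcacgggatctgttttca

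The brightest of them, at chr1:162129889-162129948, had a signal of 7861 and 7276 in WT and ASK1-deficient iBAT and of 7126 and 7299 in eWAT, and its eWAT log2 ratio was 0.12. The probe at chr1:162130380-162130439 had a signal of 149, 96.8, 219 and 558 in the same order, and its eWAT log2 ratio was 1.44. The third, at chr1:162125616-162125675, gave 0.52 on signals of 62.0 to 109. The eWAT ratio of 0.69 for the gene is thus carried by its 2 dim probes. No genome of build mm9 was used, so the exons under these probes were not assigned.

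In Mrps25, Mrpl39 and Mrpl47 too the probes of one gene differed by a log2 value of at least 1 in a tissue comparison. Mrps25 had a WT log2 difference of iBAT to eWAT of 1.36 at its bright and -0.25 at its dim probe, Mrpl39 of 1.99 and 0.49, and Mrpl47 on the ASK1-deficient arrays of 1.12 to 2.34 over its 4 probes. Over the 25 genes with several probes in use, the median spread between probes was 0.12 for the iBAT and 0.06 for the eWAT genotype ratio, and 0.24 for the WT tissue difference.

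Other genes serve the same ribosome, and their differences from the group were not tested. The 6 proteins of the mitochondrial ribosome without an Mrp name in the files include Dap3 of the small subunit and Mrpl58, a peptidyl-tRNA hydrolase built into the large subunit and listed there as Ict1. All 6 were called higher in iBAT. In iBAT all 6 had a log2 ratio of ASK1-deficient to WT below 0, with a median of -0.33, and in eWAT 5 were above 0. Over all genes 30.8% were called higher in iBAT, 59.5% were below 0 in ASK1-deficient iBAT and 55% above 0 in eWAT.

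Of 15 mitochondrial translation factors, 14 were called higher in iBAT and 14 had an iBAT log2 ratio below 0, with a median of -0.28. Tufm, which brings aminoacyl-tRNA to the ribosome, had a tissue difference of 1.87 and an iBAT ratio of -0.17, and Gfm1, which moves the ribosome along, had 1.85 and -0.47. Mtif2, which starts translation, had 0.42 and 0.09, the one iBAT ratio of this list above 0. Rmnd1 (2.26 and -0.55), Taco1 (2.25 and -0.20) and Lrpprc, which keeps mitochondrial messenger RNA stable (1.96 and -0.29), had the largest tissue differences. In eWAT 9 of the 15 were above 0, which is 60%, near the 55% of all genes. Over all genes 30.8% were called higher in iBAT and 59.5% had an iBAT log2 ratio below 0.

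Of 20 assembly factors 19 were measured, with 17 called higher in iBAT and 18 below 0 in ASK1-deficient iBAT, at a median of -0.23, and 11 above 0 in eWAT. Of 17 mitochondrial aminoacyl-tRNA synthetases 16 were measured, with 13 called higher in iBAT and 14 below 0, at a median of -0.24, and 10 above 0 in eWAT. Of 9 genes of mitochondrial DNA upkeep and transcription, 6 were called higher in iBAT and Mterf1a, a transcription terminator of mitochondria, lower, 8 were below 0 in ASK1-deficient iBAT and 5 above 0 in eWAT. Among these Tfam, which packages mitochondrial DNA, had an iBAT log2 ratio of -0.48 and Mterf1a, the exception, of 0.35. Over all genes 30.8% were called higher in iBAT and 24.6% lower, and 59.5% were below 0 in ASK1-deficient iBAT. In eWAT the assembly factors, synthetases and mitochondrial DNA genes had 57.9%, 62.5% and 55.6% above 0, near the 55% of all genes.

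The nuclear subunits of OXPHOS were also mostly higher in iBAT and lower in ASK1-deficient iBAT. Of 83 such genes 81 were measured, and 78 were called higher in iBAT, with a median log2 difference of 2.07, while Atp5g1 was called lower. In ASK1-deficient iBAT 77 were below 0, with a median log2 ratio of -0.24, and in eWAT 67 were above 0, with a median of 0.07. For the proteins of the cytosolic ribosome the median log2 tissue difference was 0.11. Of 83 listed 80 were measured, 8 were called higher in iBAT and Rpl21, Rpl22l1 and Rpl39 lower, 47 were above 0 in ASK1-deficient iBAT with a median of 0.02, and 68 were above 0 in eWAT with a median of 0.05. Over all genes 30.8% were called higher in iBAT and 24.6% lower. In ASK1-deficient iBAT 59.5% of all genes were below and 40.5% above 0, and in eWAT 55% were above 0. The difference between these lists and the mitochondrial ribosomal proteins was not tested.

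**Figure D4:**
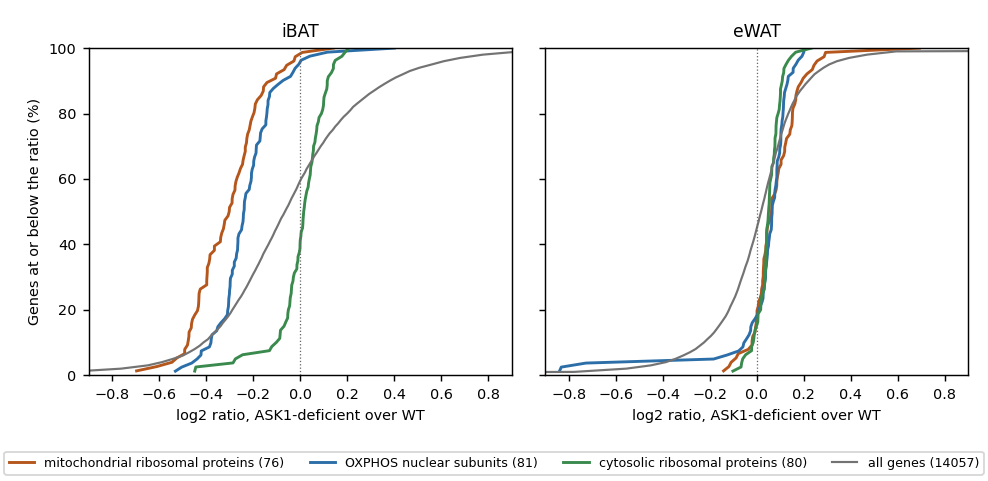
Cumulative share of genes (vertical, in %) at or below a log2 ratio of ASK1-deficient to WT (horizontal) in iBAT and in eWAT, for the mitochondrial ribosomal proteins, nuclear OXPHOS subunits, cytosolic ribosomal proteins and all measured genes. In iBAT the medians are -0.30, -0.24, 0.02 and -0.07 in this order, and in eWAT they are 0.06, 0.07, 0.05 and 0.02.

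Of 9 regulators known to act on nuclear genes for mitochondria, 4 were called higher in iBAT and 0 lower by limma, beside 30.8% and 24.6% of all genes. The 4 were the coactivators Ppargc1a (log2 difference 3.69) and Ppargc1b (4.0), the nuclear receptor Esrra (2.06) and Gabpa (0.85), the DNA-binding subunit of an ETS factor. Nrf1 had -0.37, Yy1 -0.38, Pprc1 -0.11, Gabpb1 0.00 and Myc -0.32, none of which passed. In ASK1-deficient iBAT 8 of the 9 had a log2 ratio below 0, where 59.5% of all genes were. Esrra had -0.48, Pprc1 -0.40, Ppargc1a -0.34, Gabpa -0.27 and Nrf1 -0.10. Yy1 (-0.085), Gabpb1 (-0.058) and Ppargc1b (-0.009) lay within 0.087, the median SD over repeated spots in iBAT. The 2 probes of Ppargc1a disagreed, with iBAT log2 ratios of -0.75 at the brighter and 0.08 at the dimmer. Myc was the exception, with a log2 ratio of 1.81 and iBAT log2 levels of -2.05 for WT and -0.24 for ASK1-deficient mice. Ppargc1a is also one of the brown adipocyte markers.

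Of the 76 genes, 67 had a promoter window in the RefSeq table, in 73 windows, from 250 before to 50 after the start. The motifs were matched exactly on both strands, each counted on its own also where it overlapped another. The YY1 motif AAGATGGCG was found in 8 of the 73 windows (11%) and in 1.40% of all 32851 windows, and the ETS motif CCGGAAGT in 16.4% and 3.89%. The palindromic NRF1 motif was found in 4.11% and 0.971%, the SP1 motif GGGGCGGGG in 20.5% and 11.4%, and the E-box CACGTG in 9.59% and 7.15%. A gene with several windows was counted once for each. In the group the NRF1 matches were 3 windows of 3 genes, SP1 15 of 13 genes and the E-box 7 of 5 genes. The ESRRA motif TCAAGGTCA was in 0 of the 73 windows and in 0.423% of all. The ZNF143 motif, added after the windows had been read, was in 6.85% and 1.81%, with 3 matches in Mrpl34 alone.

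At least one of the NRF1, ETS and YY1 motifs was present in 22 of the 67 genes. Their median iBAT log2 ratio of ASK1-deficient to WT was -0.35, against -0.29 for the 45 without, and their median tissue difference was 1.26 against 1.25 on the WT arrays and 0.63 against 0.87 on the ASK1-deficient arrays. In 22 of the 67 genes, 32.8%, the start of another gene lay head to head within 500 bases upstream in this table, as in 10.9% of all genes with a window. Mrpl46 and Mrps11 are such a pair within the group, and other pairs are Mrps12 with Sars2, a mitochondrial seryl-tRNA synthetase, Mrpl43 with Twnk, the helicase of mitochondrial DNA, and Mrpl47 with Ndufb5, a subunit of complex I. The other partners were not on the lists of mitochondrial genes used here, among them Tcp1, Fau, Klc4 and Psma2. Ighmbp2 (-0.26), Mitd1 (-0.21), Cyb5rl (-0.13) and Hira (-0.03) had a fitted tissue difference below 0. Of the 18 measured partners outside the group, 12 were called higher in iBAT and 0 lower, beside 30.8% and 24.6% of all genes, with a median log2 tissue difference of 0.67. Their median iBAT log2 ratio was -0.23, and 13 of the 18 were below 0, beside 59.5% of all genes.

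**Figure D5:**
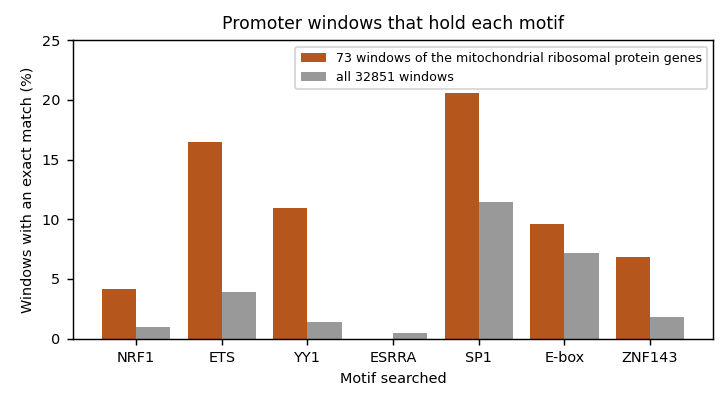
Share of promoter windows (vertical, in %) that hold an exact match to each motif (horizontal), for the 73 windows of mitochondrial ribosomal protein genes and for all 32851 windows of the RefSeq table. The bars of the group are higher for each motif other than that of ESRRA, which was found in none of the 73 windows. A gene with several windows is counted once for each, and the E-box bar is 7 windows of 5 genes.

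Markers of other cells also differed between the arrays. The brown adipocyte markers, 10 genes, summed to 3909 times the 75th percentile of the array in WT iBAT and to 3235 in ASK1-deficient iBAT, with a median log2 ratio of -0.30 over the 9 measured on all arrays and 2 above 0. In eWAT they summed to 49.4 for WT and 16.6 for ASK1-deficient mice, with 1 of 9 above 0 and a median of -1.02. The 5 macrophage markers were all higher in ASK1-deficient iBAT and summed to 4.57 for WT and 6.33 for ASK1-deficient mice in iBAT, against 32.4 and 31 in eWAT. Their part in the ratios of the mitochondrial ribosomal proteins was not tested.

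The 5 white adipocyte markers summed to 321 and 339 in WT and ASK1-deficient iBAT and to 903 and 953 in eWAT. The 6 skeletal muscle markers summed to 753 and 735 in iBAT, against 9.43 and 4.92 in eWAT, and all 6 were well above background on both iBAT arrays. The 6 hepatocyte markers summed to 0.268 and 1.32 in iBAT and to 18.1 and 0.913 in eWAT, with 1 of 6 well above background in WT iBAT. The 4 endothelial markers summed to 32.3 and 30.6 in iBAT and 23.7 and 22.4 in eWAT, and the 4 T cell markers to 3.02 and 2.39 in iBAT and 2.11 and 1.84 in eWAT, with Cd8a not well above background on any array. Their part in the tissue and genotype differences was not tested.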

How the data were processed

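RNA from pools of 3 mice was hybridized to 1 array for each of WT iBAT, ASK1-deficient iBAT, WT eWAT and ASK1-deficient eWAT, and arrays were grouped by their labels. The authors deposited the output of Agilent Feature Extraction (version 10.7.3.1 per the file headers, one-colour protocol, probe positions on mm9), whose processed signal, used here, is an intensity after background subtraction with no scaling across arrays. A series table that the authors deposited holds a linear signal, equal to the processed signal divided by 1 constant per array. That constant makes the median of the column 1.

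Control and outlier spots were left out, log2 values were averaged over the spots of a probe, and the 75th percentile of all probes was subtracted. Fold changes (the ratio of 2 arrays, as a log2 difference) were computed here from the deposited intensity. A gene is the mean of its probes well above background on all 4 arrays, which held for 14057 of 22066 genes that 22147 file names matched in RefSeq. With 1 array per condition the precision is limited, and the genotypes were not tested within a tissue.

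Tissue and genotype were fitted together with limma and Benjamini-Hochberg adjustment. A difference of at least 2-fold was counted otherwise. The technical spread used probes with at least 5 usable spots. The fit was tested on simulated data for the iBAT against eWAT comparison over 14057 genes, where it called 200 of 200 genes given a log2 difference of 1, and 6 given none. The noise was drawn alike for every gene, with an SD of 0.155, and only these 200 genes differed. On the real arrays 55.5% of genes were called, so the simulation gives no error rate for them.

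The genes named are the 5 highest and 5 lowest of each comparison, those with probes apart by a log2 value of at least 1, a fixed set of the stalk, the decoding centre and others, and regulators and translation factors. The genes and lists were chosen with earlier results of these data known. As alternatives, the background was corrected by normexp (offset 50), and arrays were scaled by quantiles, cyclic loess, the median, the 75th percentile of detected probes or not at all. The series table, 2 other filters for dim probes, the brightest probe of a gene, a threshold of 1.5-fold, models with 1 factor and the omission of each array were also tried. Cyclic loess and the ZNF143 motif were chosen after seeing the data. The fits used limma 3.58.1 under R 4.3.3, and tables and plots were made with Python 3.11.15 (pandas 2.3.3, numpy 2.4.6 and matplotlib 3.10.9).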

Additional observations from a re-analysis of the deposited data

Results flagged for a closer look

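Of the 76 mitochondrial ribosomal protein genes, 61 were lower in ASK1-deficient than in WT iBAT and higher in ASK1-deficient than in WT eWAT, a difference of direction between the tissues that was not tested, since each condition has 1 array. The count was 27 without scaling, where 30 genes were above 0 in eWAT, and 42 to 69 under the other alternatives, chosen for this count after seeing the data.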

How the results depend on the processing

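The iBAT median log2 ratio of ASK1-deficient to WT stayed below 0 under the 10 alternatives of scaling, filter and probe, at -0.39 to -0.18. It was -0.18 with quantile normalization, -0.20 with the 75th percentile over detected probes and -0.21 with cyclic loess, which was chosen after seeing the data. Of the 76 genes 69 to 75 were below 0 in iBAT, and relative to all genes the median was -0.24 to -0.16. The share of all genes above 0 in iBAT was 30.2% to 55.3% under these alternatives. Past 1.5-fold there were 2 genes in iBAT, Mrps2 and Mrpl50, and 1 in eWAT, Mrps14, and the share of all genes was not counted. Mrps14 passed only through its 2 dim probes, since its brightest probe gave an eWAT log2 ratio of 0.12. The eWAT median was -0.025 and 30 genes were above 0 without scaling, against 0.02 to 0.09 and 46 to 70 genes under the other alternatives. The share of all genes above 0 in eWAT was 30.6% without scaling and 45.4% to 61.5% otherwise. Lower in iBAT and higher in eWAT were 27 genes without scaling and 42 to 69 otherwise.

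Without scaling the median of all genes fell by 0.85 in the tissue fit. The group then had a median log2 tissue difference of 0.20, 28 genes called higher and 2 lower, 8 at least 2-fold higher in WT and 2 in ASK1-deficient mice, and 45 above 0 in ASK1-deficient mice. The same setting turned 20 of the 75 genes with a fitted difference above 0 to below 0, among them, of the genes named here, Mrpl11 (-0.20), Mrpl20 (-0.46), Mrpl23 (-0.050), Mrpl27 (-0.35), Mrpl36 (-0.14), Mrpl49 (-0.60), Mrps14 (-0.61), Mrps18c (-0.11), Mrps25 (-0.34) and Mrps30 (-0.017). Quantile normalization turned Mrpl20 (-0.015). The median tissue difference was 0.96 with normexp, 0.90 with quantile normalization and 0.87 with cyclic loess. These 3 settings and the 75th percentile over detected probes each called 1 gene, Mrps6, lower. Leaving out 1 array, fitted with tissue alone since 3 arrays leave no residual degree of freedom beside genotype, gave 53 to 73 genes called higher, where 18.9% to 35.4% of all genes were, and a median of 0.90 to 1.22, and Mrps14 ranged from -0.11, without the WT eWAT array, to 0.58, without the ASK1-deficient one. With 3 arrays the lone array of a tissue is assumed to vary like the pair of the other. The cause of these shifts was not tested, except that leaving out the scaling moves all genes of an array alike. For genotype 0 of the 76 genes were called by limma in every alternative, while normexp called 24 of all genes, median centring 139, and the deposited series values gave 128. No analysis paired by replicate number was possible, because each group has 1 array. The tissue fit compared the tissues within each genotype through its genotype term. The spots set how small a difference can be seen on an array, and the spread between mice is unknown.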
